A study of Mus musculus with 4 samples.

Results

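The control samples of the study are described here across genes: CD8+ T cells from the spleen of C57BL/6 mice, stimulated for 48 h by antibodies to CD3 and CD28 and given no IFNα. They were chosen by their labels and are 2 of the 4 samples. The other 2 samples are cells of the same strain, tissue and stimulation that also received IFNα at 2000 U/ml for 48 h. The study's methods say that the cells were naive CD8+ T cells isolated with immunomagnetic beads. Nothing in the labels ties a sample to an animal or culture, so the spread between the 2 controls may be technical.

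Anti-CD3 stands in for antigen by engaging the T cell receptor complex, and anti-CD28 gives the costimulatory signal. A naive CD8+ T cell that receives both grows in size, builds ribosomes, raises nutrient uptake, enters the cell cycle and divides. Some of its daughters take on cytolytic function with granzymes, perforin and IFNγ, while others keep lymphoid homing receptors and the transcription factors of naive and memory cells. The controls were read for the RNA of each of these programmes without added type I interferon.

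Levels are given as CPM, the count of a gene per 1000000 counts of its sample. To compare genes with each other, CPM was divided by the gene length of the deposited table (CPM per kb). Total counts were 16096121 and 17676062 in the IFNα samples, and 17375960 and 16955366 in controls 1 and 2. Control 1 stood apart in its share of cytosolic ribosomal protein genes, which took 6.94% and 7.87% of the counts of the IFNα samples, against 11.6% in control 1 and 7.84% in control 2. Values are therefore given for each control, and 2 values beside a gene are those of controls 1 and 2 unless other samples are named. In bulk RNA, fewer cells of a type and less RNA per cell cannot be told apart.

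The identity of the cells was checked first. Cd8a, the alpha chain of the coreceptor that binds MHC class I, had 1047 CPM in control 1 and 1002 CPM in control 2 and ranked 92nd of all genes by mean CPM. Cd8b1, the beta chain, had 719 CPM in control 1 and 539 CPM in control 2. Cd3e, a signalling chain of the T cell receptor complex, had 273 CPM in control 1 and 287 CPM in control 2. All 3 lineage genes were high in both samples, and since CD8+ cells were selected, these levels check the label and are not a finding.

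Activation and cycling markers were also present. Il2ra, the high-affinity chain of the IL-2 receptor that appears on activated T cells, had 131 CPM in control 1 and 152 CPM in control 2. Mki67, a nuclear protein of cycling cells, had 602 CPM in control 1 and 953 CPM in control 2, a log2 ratio of 0.66 for control 2 over control 1. Mki67 was the marker with the widest spread between the controls.

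**Figure D1:**
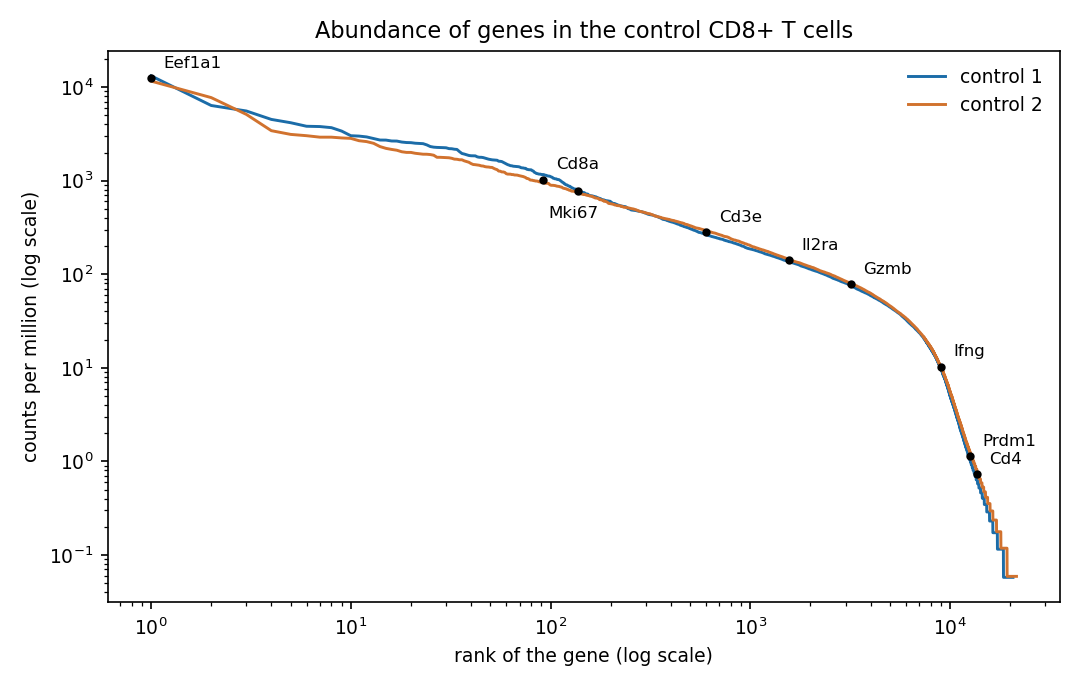
CPM of each gene (y axis, log scale) against its rank (x axis, log scale), with 1 line per control and dots at the mean of the 2 controls for 9 named genes. The lines lie together from about rank 200 on, Cd8a and Mki67 sit near the top, and Prdm1 and Cd4 sit near 1 CPM or below.

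Markers of other cells were low, with a few exceptions. Cd4, the coreceptor of helper T cells, had 0.633 and 0.826 CPM. The 6 CD4 and regulatory T cell markers summed to 6.27 and 8.43 CPM, with 1 of 6 at 1 CPM or more in both controls. Foxp3, the master factor of regulatory T cells, differed between the controls at 0.345 CPM in control 1 and 3.07 CPM in control 2, from 6 and 52 counts.

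Among B cell markers, Ms4a1 and Pax5 had at most 1 count in a control, and Blnk and Ebf1 had 0 counts in both controls. Of the 11 markers, 3 were at 10 CPM or more in both controls. Ighm, the constant region of IgM, had 433 and 375 CPM, a mean of 404 ± 40.8 CPM (SD, n = 2). Cd79b, a signalling chain of the B cell receptor, had 16.1 and 12.8 CPM, and Ighd, the constant region of IgD, had 12.2 and 13.1 CPM. Below them, Cd79a, the partner of Cd79b, had 3.4 and 5.54 CPM and Igkc, the kappa constant region, had 3.34 and 2.01 CPM. The 11 markers summed to 336 and 322 CPM in the IFNα samples, against 468 and 410 CPM in the controls. The part of B cell RNA in any result was not tested.

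Natural killer and gamma delta T cell genes were near 0 apart from Klrd1. Ncr1, a receptor of natural killer cells, had 0 and 1 counts, Klra8 had 0 counts in both controls, and Trdc had 2.53 and 3.3 CPM. Klrd1, the CD94 lectin receptor that activated CD8+ T cells are also known to carry, had 134 and 122 CPM. Pecam1, on an endothelial list but known on naive T cells as well, had 173 and 183 CPM while Cdh5, the endothelial cadherin, had 0 counts in both controls.

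Myeloid markers were low as whole lists. The 11 macrophage and monocyte markers summed to 25.9 and 24.7 CPM, the 7 dendritic cell markers to 5.24 and 6.25 CPM, and the 8 neutrophil markers to 8.4 and 8.79 CPM. C1qa, Clec9a, Cd209a, Ly6g, Ngp and S100a9 had 0 counts in both controls. A count of 0 allows a level of up to 0.0874 CPM, which is 3 counts over both controls, and this limit covers counting error only. Lyz2, the macrophage lysozyme, had 4.91 and 5.94 CPM in the IFNα samples, against 16.5 and 14.4 CPM in the controls, and Mpo, myeloperoxidase, had 2.49 and 2.32 CPM in the IFNα samples, against 6.79 and 7.25 CPM in the controls. These are low levels, whose part in other differences was not tested.

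Of the 54532 genes in the table, 12349 reached 1 CPM in both controls, 8783 reached 10 CPM, 2144 reached 100 CPM and 77 reached 1000 CPM. Protein-coding genes made up 10755 of the 12349. A total of 31413 genes had 0 counts in both controls. The 100 most abundant genes held 20.7% of the counts of control 1 and 17.0% of those of control 2. Control 1 needed 870 genes to reach 50 percent of its counts and control 2 needed 1006.

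The most abundant RNAs were those of protein synthesis. Eef1a1, the factor that delivers aminoacyl-tRNA to the ribosome, was first by CPM and per kb with 13208 and 11600.0 CPM. Eef2, which moves the ribosome along the mRNA, had 5559 and 5110.1 CPM. Rpsa and Rplp0, ribosomal proteins of the small and large subunit, had 4518 and 2918 CPM for Rpsa and 4165 and 3124 CPM for Rplp0. Of the 100 most abundant genes 46 were cytosolic ribosomal protein genes, and 52 of the 100 highest per kb were.

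Other leading genes came from mitochondria, chaperones, the cytoskeleton and antigen presentation. mt-Co1, a cytochrome oxidase subunit encoded by the mitochondrial genome, was second with 6364 and 7728 CPM. Hsp90ab1, a cytosolic chaperone, had 3818 and 3424 CPM, and Actb, beta-actin, had 3789.9 and 3026 CPM. H2-K1, a classical MHC class I heavy chain, ranked 9th with 3389 and 2674 CPM. Mitochondrially encoded genes took 1.78% of the counts of control 1 and 1.93% of those of control 2.

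The 2 rankings shared 68 of their 100 genes. The genes that led by CPM had a median length of 2604 bases, and those that led per kb had a median of 1608.5 bases. Rplp1, a short ribosomal stalk protein gene, was 18th by CPM and 3rd per kb at 5442 and 3395 CPM per kb. Ncl, nucleolin, was 14th by CPM but had 261 and 227 CPM per kb, with a gene length in the table of 10188 bases. The length column is the union of all annotated exons (it equalled that union for 53325 of 54409 genes matched to GENCODE M21), so genes with long retained or alternative exons read low per kb.

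Reads of several leading genes could be shared with copies elsewhere in the genome. Of all stretches of 50 bases in the principal transcript of Eef1a1, 59.2% also occur in a transcript of another gene. The share was 85.6% for Rpl3, 73.2% for Hspa8 and 0% for B2m and Cd8a. Among genes named below it was 70.4% for Fbl, 65.3% for Eif4a1 and 63.1% for Phgdh. Levels of the genes with high shares are uncertain, because it is not given how reads with several positions were counted.

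The translation list (12 genes) summed to 28234 and 24878 CPM, and all 12 were above 10 CPM in both. Its order was Eef1a1, Eef2, Eif5a, Eef1g, Eef1b2 and Pabpc1 per kb. Eif5a, the hypusinated elongation factor, had 703 and 522 CPM per kb. The cap-binding subunit Eif4e was lowest of the list at 22.3 and 18.5 CPM per kb, with the RNA helicase Eif4a1 at 258 and 207 CPM per kb and the scaffold Eif4g1 at 90.7 and 106 CPM per kb. The 3 subunits of the cap complex therefore stood in the order Eif4a1, Eif4g1, Eif4e, and their ranges did not overlap.

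Nucleolar genes of ribosome production were all expressed. The 18 genes summed to 8453 and 7360.1 CPM. Npm1, nucleophosmin, led with 869.6 and 714 CPM per kb. Nop56, a core protein of the small nucleolar particles that methylate ribosomal RNA, had 132 and 112 CPM per kb, and Fbl, its methyltransferase, had 109 and 75 CPM per kb. The catalytic subunit of RNA polymerase I, Polr1a, was among the lowest at 10.7 and 14.3 CPM per kb. Myc, a transcription factor that drives this programme in activated lymphocytes, had 250.1 and 234 CPM and was the highest of the activation-induced factors per kb.

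The promoters of these growth genes were examined because Myc binds the E-box, the 6 letters CACGTG, which read the same on both strands. The windows are RefSeq promoters on GRCm38.p6, 250 bases before to 50 bases after a gene's start. Of the translation list 9 of 12 genes matched, with 8 of 15 windows (53.3%) holding CACGTG, against 7.15% of all 32851 windows and 11.1% of windows of genes at 100 CPM or more in both controls. In the nucleolar list 4 of 17 windows held it, and in the polyamine and nucleotide list 4 of 18. A high share was not particular to growth genes. The dendritic cell markers, low in the controls, held it in 3 of 7 windows (42.9%). The glucose uptake and glycolysis list held it in 3 of 30 (10%). These lists have few windows, and the differences between them were not tested. A gene can have several windows that overlap, and a match describes letters only. The 3 genes with the highest level per kb among the holders in the growth lists are shown, with the E-box in capitals.
Eef2 (chr10:81176381-81176680, plus strand): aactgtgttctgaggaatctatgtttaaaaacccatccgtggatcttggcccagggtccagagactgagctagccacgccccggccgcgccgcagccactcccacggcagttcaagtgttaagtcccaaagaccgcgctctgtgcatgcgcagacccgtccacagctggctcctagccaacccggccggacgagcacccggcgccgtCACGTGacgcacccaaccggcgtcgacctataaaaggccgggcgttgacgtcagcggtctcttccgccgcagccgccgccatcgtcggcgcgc
Eif5a (chr11:69920581-69920880, minus strand): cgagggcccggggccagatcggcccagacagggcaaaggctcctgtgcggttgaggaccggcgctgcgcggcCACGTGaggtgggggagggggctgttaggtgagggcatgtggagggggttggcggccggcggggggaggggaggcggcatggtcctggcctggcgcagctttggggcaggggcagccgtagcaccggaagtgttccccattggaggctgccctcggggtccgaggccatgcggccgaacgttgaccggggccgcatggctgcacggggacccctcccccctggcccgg
Eif4a1 (chr11:69672374-69672673, minus strand): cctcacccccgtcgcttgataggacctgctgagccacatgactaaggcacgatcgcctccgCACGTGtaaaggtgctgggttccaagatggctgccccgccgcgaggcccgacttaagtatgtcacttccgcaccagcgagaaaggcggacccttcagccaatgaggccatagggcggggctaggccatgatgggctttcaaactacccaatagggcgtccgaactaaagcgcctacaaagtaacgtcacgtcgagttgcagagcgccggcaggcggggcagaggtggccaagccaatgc
Counted from the start site, the E-box began at position -43 in Eef2, -178 in Eif5a and -189 in Eif4a1.

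**Figure D2:**
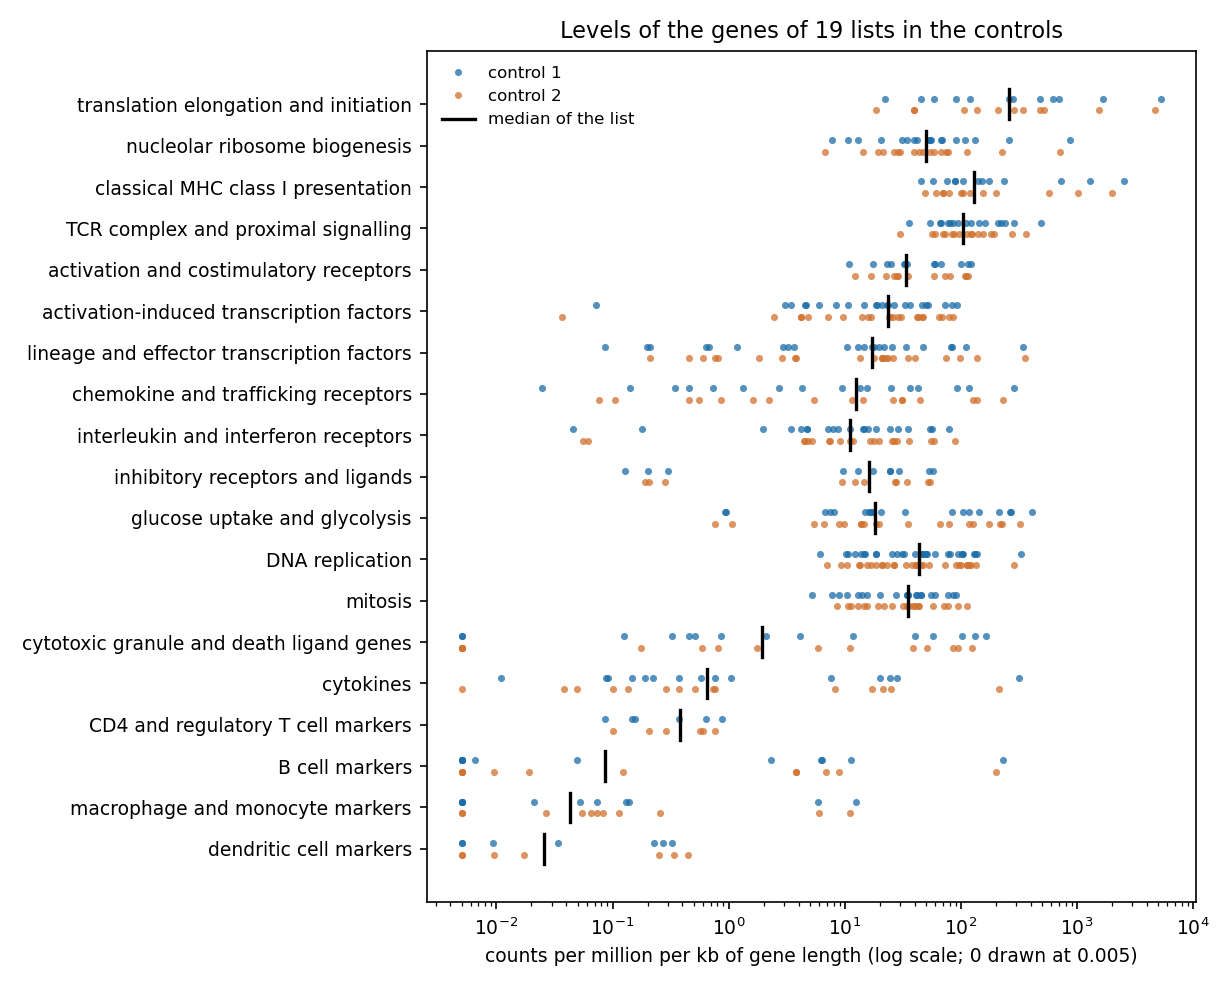
Each dot is 1 gene of a list in 1 control, placed by its CPM per kb of gene length (x axis, log scale, 0 drawn at 0.005), for 19 lists (y axis), with a bar at the median of the list. Translation, class I presentation and T cell receptor genes lie highest, cytokines and cytotoxic genes spread over a wide range, and markers of other cells lie mostly under 1 CPM per kb.

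All 17 genes of the T cell receptor complex and its proximal signalling were above 10 CPM in both controls, with a median of 105 CPM per kb. Cd8b1 led per kb with 485 and 364 CPM per kb, ahead of Cd8a with 288 and 276 CPM per kb. Lck, the kinase that CD8 brings to the receptor, had 221 and 193 CPM per kb. Zap70, the kinase recruited to the phosphorylated CD3 chains, had 94.9 and 84.2 CPM per kb, and the adaptor Lat had 162 and 124 CPM per kb. The adaptor Lcp2 and the zeta chain Cd247 were lowest.

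The 4 CD3 chains show how far the length behind a value matters. Over all exons Cd3d had 239 and 155 CPM per kb, Cd3g had 123 and 86.7 CPM per kb, Cd3e had 66.8 and 70.3 CPM per kb and Cd247, the zeta chain, had 35.4 and 30.0 CPM per kb. In this order no neighbours overlapped in their ranges. Over the principal transcript, chosen as an alternative after the data were seen, Cd3g moved ahead of Cd3d with 393 and 277 CPM per kb, while Cd247 stayed lowest with 115 and 97.9 CPM per kb. The highest chain was 6.03 times the lowest over all exons and 3.14 times over the principal transcript.

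The IL-2 receptor binds IL-2 with high affinity only when all 3 chains join. Il2rg, the common gamma chain, had 123 and 110.0 CPM per kb and Il2rb had 99.6 and 116 CPM per kb, and their ranges overlapped. Il2ra was below both at 22.9 and 26.5 CPM per kb, and remained lowest over the principal transcript at 29.6 and 34.3 CPM per kb. The alpha chain was therefore the least abundant RNA of the 3 on either length.

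**Figure D3:**
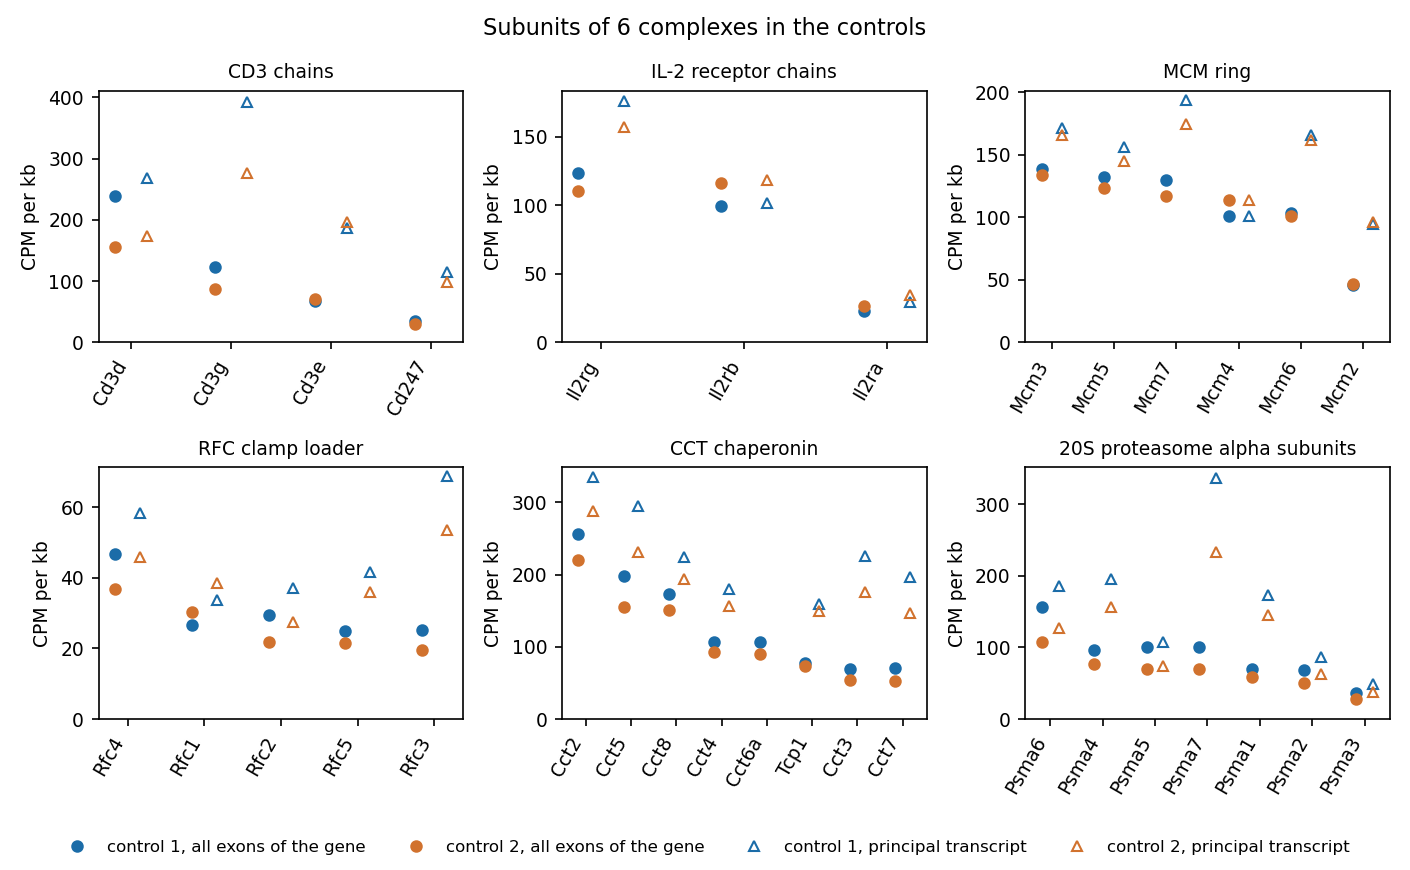
CPM per kb (y axis, linear from 0) of the subunits of 6 complexes (x axis) in the 2 controls, over all exons of the gene (filled circles) and over its principal transcript (open triangles; Cct6a has no such transcript and no triangle). Il2ra, Cd247, Mcm2 and Psma3 were lowest in their complex on both lengths, whereas the order of the leading subunits changed with the length in the CD3 chains, the MCM ring, the clamp loader and the proteasome.

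Costimulatory receptors were all above 10 CPM in both controls (13 of 13). Cd27, a receptor of the TNF receptor family, stood with Il2rg and Il2rb at the top and had 114 and 108 CPM per kb. Cd28 itself had 58.6 and 80.8 CPM per kb, and Tfrc, the transferrin receptor for iron uptake, had 59.3 and 72.9 CPM per kb. Tnfrsf9, known as 4-1BB, had 66.8 and 58.4 CPM per kb. Cd69, an early activation antigen that holds T cells in lymphoid tissue, had 17.4 and 16.9 CPM per kb. Cd44, an adhesion receptor used to tell activated from naive T cells, was the lowest of the list at 11 and 12.3 CPM per kb.

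Ccr7, which guides cells to lymph nodes, led the trafficking receptors with 284 and 229.6 CPM per kb. Itgal, the alpha chain of LFA-1, had 92 and 126 CPM per kb. S1pr1, the receptor for exit from lymphoid organs, had 42.6 and 44.5 CPM per kb. Receptors of effector and tissue migration were lower: Cxcr3 had 15.6 and 14.3 CPM per kb and Cx3cr1 had 0.141 and 0.105 CPM per kb.

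The lowest member, Ccr6, rested on 1 and 3 counts, and per kb the highest gene was 5082 times as high by mean level. Among members at a mean of 5 CPM or more, the controls disagreed most by ratio on Itga4, the alpha 4 integrin chain, with 132 and 364 CPM. Of the 12 members at a mean of 5 CPM or more, 1 was over 2-fold higher in control 2 and 0 were over 2-fold lower, where 2.29% and 0.356% of all 10114 genes at that level were.

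Inhibitory receptors ran from Lag3 and Ctla4 at the top to 3 genes near 0. Lag3, a receptor for MHC class II, had 57.6 and 52 CPM per kb, and Ctla4, which competes with CD28 for its ligands, had 53.2 and 54.3 CPM per kb. Cd274, the ligand PD-L1, had 24.7 and 34.4 CPM per kb, and its receptor gene Pdcd1 had 29 and 27.8 CPM per kb. Entpd1, Havcr2 and Cd244a had at most 0.299 CPM per kb in any control. Havcr2, which encodes TIM-3, had 6 and 13 counts.

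Among cytokine receptors Il27ra was highest with 79.1 and 89.6 CPM per kb. Il7r, the survival receptor of naive and memory T cells, followed with 54.3 and 59.2 CPM per kb, and its range overlapped with that of Ifngr1 at 55.8 and 54.9 CPM per kb. Il21r had 35.2 and 35.6 CPM per kb and Il4ra had 28.7 and 25.5 CPM per kb. The inducible chain of the IL-12 receptor, Il12rb2, had 1.97 and 4.79 CPM per kb and was over 2-fold higher in control 2, as 1 of the 19 members at a mean of 5 CPM or more. Il1r1 and Il1r2 were lowest, with 0.288 and 0.354 CPM for Il1r1 and 0.345 and 0.118 CPM for Il1r2.

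Tcf7, which encodes TCF-1, a factor of naive and memory cells, led the 23 lineage factors with 343 and 354 CPM per kb. Ikzf1 followed with 109.6 and 136 CPM per kb, Ets1 with 81.6 and 97.6 CPM per kb, and Klf2, a driver of S1pr1 expression, with 84.2 and 74.1 CPM per kb. The inhibitors Id2 and Id3 had 46.8 and 40.4 CPM per kb for Id2 and 33.5 and 25.9 CPM per kb for Id3. Lowest were Prdm1, which encodes the effector factor Blimp-1, with 0.196 and 0.211 CPM per kb, and Zeb2 with 0.211 and 0.453 CPM per kb. Tcf7 was 1713 times Prdm1 by mean level per kb.

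The effector factors in between were Tbx21, which encodes T-bet and had 21.8 and 21 CPM per kb, and Eomes with 19.7 and 20.9 CPM per kb. Lef1, a partner of Tcf7, had 25.4 and 22.7 CPM per kb, and Bach2, a repressor of effector genes, had 13.1 and 21.3 CPM per kb. The ranges of Tbx21 and Bach2 overlapped. In all, 773 of the 1469 genes that the table annotates as transcription factors reached 1 CPM in both controls.

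Factors induced by receptor signalling were present in nearly the whole list, with 22 of 23 at 1 CPM or more in both controls. After Myc, Jund had 84.3 and 78.8 CPM per kb, Junb had 72.4 and 64.7 CPM per kb, and Irf4, whose level follows receptor signal strength, had 52.3 and 68.5 CPM per kb. Rela, an NF-κB subunit, had 49.9 and 46.5 CPM per kb, and Nr4a1, an immediate early receptor gene, had 46.2 and 46.8 CPM per kb. Fos was near the bottom at 3.06 and 2.46 CPM per kb, and Batf3 was lowest with 2 and 1 counts. The Jun and Fos genes of the list thus ran from Jund and Junb down to Fos at 48 h.

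Cytotoxic genes rested on a few members. Of 15 genes 9 reached 1 CPM in both controls and 7 reached 10 CPM. Ctsw, a cathepsin of cytotoxic lymphocytes, led with 165 and 125 CPM per kb, then Nkg7, a granule membrane protein, with 132 and 94 CPM per kb, and Srgn, the granule proteoglycan serglycin, with 102 and 85.2 CPM per kb. Gzmb, granzyme B, had 57.8 and 51.1 CPM per kb and was the only granzyme of 8 above 2 CPM.

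The other granzymes were low. Gzmm was above 1 CPM with 1.27 and 1.18 CPM. Gzma had 9 and 3 counts, Gzmk had 0.633 and 0.826 CPM, Gzmc had 5 and 0 counts, and Gzmd and Gzme had 0 counts in both. Prf1, perforin, which forms the pore for granzymes, had 30.4 and 28.8 CPM, a mean of 29.6 ± 1.13 CPM (SD, n = 2). Fasl, the death ligand, had 4.09 and 3.42 CPM.

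Cytokine RNA was dominated by Ltb. Ltb, lymphotoxin beta, had 316 and 212 CPM per kb, Tgfb1 had 28.2 and 24.9 CPM per kb and Tnf had 24.4 and 21.4 CPM per kb. Ifng, the main effector cytokine of CD8+ T cells, had 9.9 and 10.6 CPM. Il2, the growth factor that activated T cells secrete, had 21 and 10 counts, which is 1.21 and 0.59 CPM. Cytokines of helper T cells were near 0: Il4 had 8 and 6 counts, Il17a had 3 and 2 counts and Il21 had 1 and 0 counts. Of 15 cytokines 6 reached 1 CPM in both controls.

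Among chemokine ligands Xcl1, which attracts cross-presenting dendritic cells, led with 254 and 183 CPM per kb. Ccl4, Ccl3 and Ccl5, ligands of the CC family, followed, with Ccl4 at 91.7 and 66.1 CPM per kb. Ccl3 had 40.9 and 29 CPM per kb and Ccl5 had 38.2 and 29.2 CPM per kb, and their ranges overlapped. Cxcl9 had 1.5 and 1.77 CPM, Cxcl10 had 4.78 and 4.48 CPM and Cxcl11 had 0 and 1 counts. The 3 ligands of CXCR3 were therefore at or under 5 CPM without added interferon.

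Genes for both chains of the type I interferon receptor had counts in both controls. Ifnar1 had 24.3 and 28.2 CPM per kb and Ifnar2 had 18.4 and 17.9 CPM per kb, and their ranges did not overlap. Among the signal transducers, Stat6 had 47.5 and 52.2 CPM per kb, Stat5b had 33.1 and 41 CPM per kb and Stat3 had 23.9 and 28.3 CPM per kb. Stat2, a subunit of the interferon-activated factor ISGF3, was below these with 12.4 and 14.2 CPM per kb. Irf9, the DNA-binding subunit of that factor, had 18.3 and 17.1 CPM per kb.

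Interferon-stimulated genes were not silent in the controls. Of 20 such genes 18 reached 1 CPM and 12 reached 10 CPM in both. Zbp1, a nucleic acid sensor, had 114 and 121 CPM, Bst2, tetherin, had 74.5 and 48.7 CPM, and Ifit2 had 41.5 and 52.7 CPM. Isg15, the ubiquitin-like modifier, had 5.99 and 4.25 CPM. Rsad2, viperin, was lowest with 7 and 4 counts, and Ifi44 had 7 and 17 counts. The 20 genes together summed to 558 and 545 CPM, less than the class I heavy chain H2-K1 alone.

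Classical class I presentation was among the highest lists, at a median of 129 CPM per kb with 13 of 13 genes above 10 CPM in both controls. B2m, the light chain, had 2522 and 2018 CPM per kb, and the heavy chain genes had 1299.5 and 1025 CPM per kb for H2-K1 and 733 and 578 CPM per kb for H2-D1. Tap1 and Tap2, the chains of the peptide transporter, had 105 and 100.2 CPM per kb for Tap1 and 57.5 and 49.3 CPM per kb for Tap2. Psmb8, an immunoproteasome subunit, had 153 and 105 CPM per kb. Nlrc5, the activator of class I genes, had 45.7 and 70.0 CPM per kb. MHC class II genes were far lower: H2-Ab1 had 5.12 and 4.66 CPM, while the invariant chain Cd74 had 76.7 and 58 CPM.

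Glycolytic enzymes formed a graded series. Ldha, which makes lactate, led with 410.0 and 319 CPM per kb, then Pgk1 with 271 and 227 CPM per kb and Pkm with 265 and 219 CPM per kb, whose ranges overlapped. Aldoa had 213 and 174 CPM per kb and Eno1 had 143 and 117 CPM per kb. The glucose transporters were lower, with 14.8 and 13.8 CPM per kb for Slc2a1 and 8.06 and 9.79 CPM per kb for Slc2a3. Of the 20 genes all reached 1 CPM in both controls.

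Gapdh stood apart from this series. It had 17 and 6.68 CPM per kb, below Tpi1, Pgk1, Pgam1, Eno1 and Pkm, the enzymes on either side of it in the pathway. It was also over 2-fold lower in control 2, as 1 of the 19 list genes at a mean of 5 CPM or more. Of its 50-base stretches 82.5% also occur in transcripts of 218 other genes, more partners than for any other gene of the list. The corresponding share was 72.2% for Eno1, 68% for Pgk1, 34.4% for Pkm and 17.1% for Ldha, so a high share was not particular to Gapdh. The values of Gapdh, Eno1 and Pgk1 are uncertain for this reason, and the effect of shared reads on them was not tested.

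Nutrient uptake and building blocks were covered by many genes at moderate levels. Slc1a5, a glutamine transporter, led the amino acid transporters with 97 and 91.9 CPM per kb, and Slc7a5 with Slc3a2, the 2 chains of the leucine transporter, had 34.6 and 39.1 CPM per kb for Slc7a5 and 38 and 35.1 CPM per kb for Slc3a2. Slc7a11, the cystine transporter, was near 0 with 4 and 0 counts. Phgdh, the first enzyme of serine synthesis, had 141 and 111 CPM per kb, and Shmt2, the mitochondrial serine hydroxymethyltransferase, had 116 and 104 CPM per kb. Srm and Odc1 of polyamine synthesis had 131 and 99.2 CPM per kb for Srm and 94.1 and 86.1 CPM per kb for Odc1. Paics, of purine synthesis, had 94.8 and 89.5 CPM per kb. All 18 polyamine and nucleotide genes were above 10 CPM in both controls.

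The cell cycle was represented from G1 to mitosis. Cdk4, the kinase of D-type cyclins, led its list with 118 and 94.1 CPM per kb. Ccnd2 had 345 and 449 CPM and Ccnd3 had 187 and 173 CPM, while Ccnd1 had 0.46 and 0.826 CPM. Ccna2 and Ccnb2, cyclins of S phase and mitosis, had 39.6 and 45.4 CPM per kb for Ccna2 and 58.2 and 45.5 CPM per kb for Ccnb2. Of the inhibitors Cdkn1b had 33.7 and 40.8 CPM per kb, whereas Cdkn2a had 1 and 0 counts. Ccna1, the germ line cyclin A, had 0 counts in both controls.

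The E2F factors turn on S phase genes once pocket proteins release them. Tfdp1, their dimer partner, had 83.6 and 85.8 CPM per kb, and E2f4, a repressor with pocket proteins, had 64.3 and 60.7 CPM per kb. E2f1 had 18.9 and 18.1 CPM per kb and E2f2 had 23.6 and 24.8 CPM per kb, both activators, and the atypical repressor E2f7 was lowest with 1.33 and 1.79 CPM per kb. Rbl1, the pocket protein p107, had 20.6 and 29.6 CPM per kb, and Rb1 had 6.1 and 9.76 CPM per kb.

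DNA replication genes were all above 10 CPM in both controls (31 of 31) and summed to 7770.4 and 7638 CPM. Pcna, the sliding clamp, led with 329 and 286 CPM per kb. Mcm3, Mcm5 and Mcm7 of the replicative helicase came next, with 138 and 134 CPM per kb for Mcm3. Rrm2, the regulated subunit of ribonucleotide reductase, had 94.9 and 91.5 CPM per kb. Fen1, the flap endonuclease of Okazaki fragments, was the lowest with 6.15 and 6.96 CPM per kb. On the same strand, 0% of its 50-base stretches occur in another gene. The share was 31.8% for Pcna, 26% for Mcm7 and 0% for Mcm3. Genes on the opposite strand were not searched, and the cause of the low Fen1 level was not tested.

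The 6 MCM proteins form a ring with 1 copy of each. Over all exons they ran from 138 and 134 CPM per kb for Mcm3 to 45.8 and 46.7 CPM per kb for Mcm2, a ratio of 2.94. Over the principal transcript the ratio was 1.93, with Mcm7 first at 194 and 174 CPM per kb, and Mcm2 still last at 94.5 and 96.4 CPM per kb. The CCT chaperonin (8 genes) spanned 3.84 times and the 20S proteasome alpha ring (7 genes) 4.12 times over all exons, and the ring 6.50 times over principal transcripts. The RFC clamp loader (5 genes) spanned 1.87 times over all exons and 1.89 times over principal transcripts.

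Replication promoters were examined because E2F factors bind letters of the type TTTCCCGC, TTTGGCGC and TTTCGCGC, searched on both strands. The last of these can overlap with TTTGGCGC read on the other strand, as in Mcm5. Of the 31 genes 25 matched, with 12 of 32 windows (37.5%) holding at least 1 of the 3, against 1.84% of all windows and 5.1% of windows of genes at 100 CPM or more in both controls. In the E2F and pocket protein list 6 of 12 windows held 1. The windows of the 3 holders with the highest level per kb are shown, with the matches in capitals.
Mcm3 (chr1:20820263-20820562, minus strand): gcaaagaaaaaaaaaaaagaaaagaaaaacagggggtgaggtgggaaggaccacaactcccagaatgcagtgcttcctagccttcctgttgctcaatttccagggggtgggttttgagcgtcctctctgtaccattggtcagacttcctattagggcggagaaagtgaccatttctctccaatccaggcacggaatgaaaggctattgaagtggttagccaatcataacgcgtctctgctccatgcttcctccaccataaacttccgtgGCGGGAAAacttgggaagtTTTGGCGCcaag
Mcm5 (chr8:75109259-75109558, plus strand): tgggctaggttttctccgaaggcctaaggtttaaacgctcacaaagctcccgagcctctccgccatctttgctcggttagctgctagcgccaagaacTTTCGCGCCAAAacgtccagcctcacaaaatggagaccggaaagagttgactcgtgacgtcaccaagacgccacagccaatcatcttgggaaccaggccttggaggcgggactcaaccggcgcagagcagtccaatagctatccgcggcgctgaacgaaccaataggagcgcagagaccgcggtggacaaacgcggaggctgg
Mcm7 (chr5:138171834-138172133, minus strand): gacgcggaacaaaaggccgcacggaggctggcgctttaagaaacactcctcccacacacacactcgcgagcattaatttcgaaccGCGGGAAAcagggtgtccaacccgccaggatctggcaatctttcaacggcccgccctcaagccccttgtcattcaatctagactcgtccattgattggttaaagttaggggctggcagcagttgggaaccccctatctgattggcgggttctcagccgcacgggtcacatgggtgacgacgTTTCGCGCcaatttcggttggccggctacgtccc
Counted from the start site, the matches began at positions 20 and 39 in Mcm3, -153 and -149 in Mcm5, and -165 and 17 in Mcm7.

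Mitotic genes were all above 10 CPM in both controls (22 of 22) and summed to 3916 and 4616 CPM. Top2a, the topoisomerase that untangles chromosomes, led with 90.3 and 112 CPM per kb. Cdc20, the activator of the anaphase-promoting complex, had 84.8 and 71.6 CPM per kb, and Incenp of the chromosomal passenger complex had 77.4 and 77.4 CPM per kb. Kif11, a spindle motor, had 45.3 and 57.9 CPM per kb, and Ube2c, a ubiquitin carrier of anaphase, had 55 and 42.7 CPM per kb. Cenpf, a kinetochore protein with a long transcript, was lowest with 5.27 and 8.57 CPM per kb. Mki67 and Cenpf were higher in control 2, Cdc20 and Ube2c lower, and none of the 22 was over 2-fold apart.

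The windows of mitotic genes were searched for another pair of motifs. Such genes are known for the CHR element, TTTGAA, near the start, together with CCAAT boxes, which NF-Y binds. Of the 22 genes 18 matched, and 14 of 19 windows (73.7%) held both TTTGAA and CCAAT on either strand, against 6.95% of all windows and 5.56% of windows of genes at 100 CPM or more in both controls. CCAAT alone was in 84.2% of mitotic windows, 65.6% of replication windows and 37.4% of all windows. It was not particular to cell cycle lists. Class I presentation windows held it in 83.3%, serine and one-carbon windows in 70% and translation windows in 20%. None of the 19 mitotic windows held an E2F-type match as spelled here. The 3 holders with the highest level per kb are shown, with both motifs and their reverse complements in capitals.
Top2a (chr11:99024140-99024439, minus strand): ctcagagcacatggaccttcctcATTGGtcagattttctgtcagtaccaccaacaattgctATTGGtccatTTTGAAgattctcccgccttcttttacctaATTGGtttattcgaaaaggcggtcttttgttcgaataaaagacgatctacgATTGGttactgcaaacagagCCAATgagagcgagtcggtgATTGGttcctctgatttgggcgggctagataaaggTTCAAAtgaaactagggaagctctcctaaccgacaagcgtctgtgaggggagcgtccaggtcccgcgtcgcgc
Cdc20 (chr4:118437294-118437593, minus strand): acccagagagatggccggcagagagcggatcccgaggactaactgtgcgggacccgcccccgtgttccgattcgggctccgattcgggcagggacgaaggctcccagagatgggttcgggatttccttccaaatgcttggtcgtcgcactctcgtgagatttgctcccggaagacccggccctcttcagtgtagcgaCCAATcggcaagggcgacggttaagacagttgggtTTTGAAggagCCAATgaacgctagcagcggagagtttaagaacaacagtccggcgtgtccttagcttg
Mki67 (chr7:135716330-135716629, minus strand): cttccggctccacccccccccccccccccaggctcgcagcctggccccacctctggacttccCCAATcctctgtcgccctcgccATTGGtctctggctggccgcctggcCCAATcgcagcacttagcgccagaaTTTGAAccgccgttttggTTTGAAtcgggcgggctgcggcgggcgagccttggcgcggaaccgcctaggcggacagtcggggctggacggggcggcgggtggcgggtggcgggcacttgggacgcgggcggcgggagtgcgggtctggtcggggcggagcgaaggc
Counted from the start site, the CHR letters began at positions -179 and -23 in Top2a, -18 in Cdc20, and -116 and -98 in Mki67.

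**Figure D4:**
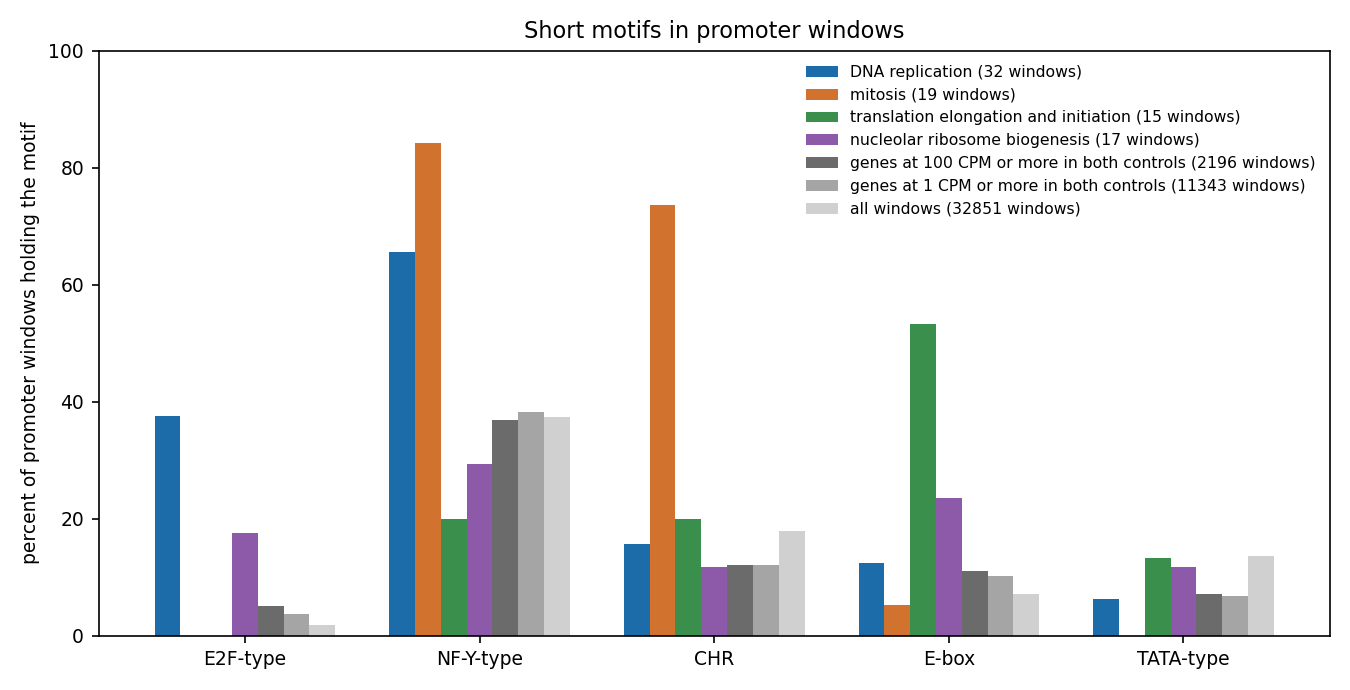
Percent of promoter windows that hold a short motif on either strand (y axis), for 5 motif types (x axis), in 4 gene lists, in genes at 100 CPM or more and at 1 CPM or more in both controls, and in all windows. The bars stand for windows and not for bound sites. Replication windows held an E2F-type match in 37.5% and mitotic windows a CHR match in 73.7%, against 1.84% and 17.9% of all windows.

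Survival genes of the BCL2 family were led by Mcl1, an antiapoptotic member, with 154 and 155 CPM per kb. Bax, an executioner, had 60.4 and 42.5 CPM per kb, and Bcl2l11, which encodes BIM, had 22.3 and 28.4 CPM per kb. Bcl2 had 9.36 and 12.5 CPM per kb, and the lowest members were Pmaip1, Bcl2l2 and Bmf. All 14 genes reached 1 CPM in both controls. Bcl2a1d and Bcl2a1b share 79.5% and 79.2% of their 50-base stretches with other genes, so their levels are uncertain.

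The 2 controls were then compared with each other. At a mean of 5 CPM or more, 9846 of 10114 genes (97.35%) lay within 2-fold, and the correlation of log2 CPM across these genes, which share both libraries, was r = 0.968. A total of 232 genes (2.29%) were over 2-fold higher and 36 (0.356%) over 2-fold lower in control 2. With 1 sample on each side this is a spread and was not tested.

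The spread varied with gene length. The genes over 2-fold higher in control 2 had a median length of 8303.5 bases, those over 2-fold lower had 450 bases, and all 10114 genes had 4394 bases. Across genes the log2 ratio correlated with log10 gene length at r = 0.557, as a description of these 2 libraries. After a lowess fit on gene length was subtracted, 153 genes were over 2-fold higher in control 2, against 232 before, and 13 were over 2-fold lower, against 36 before. The log2 ratio of Gapdh was -1.35 with and without this fit. For Rps29 it was -0.87 after the fit, against -1.32 before. After the fit it was 0.25 for Mki67 and 0.88 for Itga4, both smaller than before and under 2-fold. Of the 36 genes lower in control 2, 27 were annotated as pseudogenes of any kind. Among the 12349 genes at 1 CPM or more in both controls, processed pseudogenes, the largest pseudogene class, numbered 457. Their share at a mean of 5 CPM or more was not counted. The cause of this trend was not tested.

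Rps29, a small ribosomal protein gene, had 414 and 482 CPM in the IFNα samples, against 1045 and 418 CPM in the controls. Atp5k, a subunit of the mitochondrial ATP synthase, had 26 and 32.6 CPM in the IFNα samples, against 62.8 and 29.2 CPM in the controls. Rps10-ps1, a processed copy, had 15.4 and 15.8 CPM in the IFNα samples, against 31.4 and 14.7 CPM in the controls. These 3 short genes were high in control 1 alone among the 4 samples. Gapdh had 115 and 30.8 CPM in the IFNα samples, against 70.2 and 27.6 CPM in the controls, so that it was high in 1 sample of each group. At the other end, Zfp871, a zinc finger gene, had 110.3 and 110.5 CPM in the IFNα samples, against 18.1 CPM in control 1 and 117 CPM in control 2. Kcna3, the potassium channel Kv1.3 of lymphocytes, had 103 and 100.3 CPM in the IFNα samples, against 24.8 CPM in control 1 and 93.1 CPM in control 2. Zbtb20, a transcriptional repressor, had 78.2 and 78 CPM in the IFNα samples, against 20.5 and 78.1 CPM in the controls. Kcna3 has a gene length of 1902 bases, so not every gene that stood apart was long. Zfp871, Kcna3 and Zbtb20 were low in control 1 alone among the 4 samples.

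None of the 31 replication genes, the 22 mitotic genes, the 17 receptor complex genes and the 18 nucleolar genes was over 2-fold apart in either direction, where 2.29% of all 10114 genes were over 2-fold higher in control 2 and 0.356% over 2-fold lower. Counts of 0 in lists of this size are near that background. Of the 19 lineage factors at a mean of 5 CPM or more, 2 were over 2-fold higher in control 2: Ikzf3 with 335 and 327 CPM in the IFNα samples, against 151 and 306 CPM in the controls, and Zeb2 with 12.4 and 8.43 CPM in the IFNα samples, against 4.2 and 9.02 CPM in the controls. Median log2 ratios of control 2 over control 1 were -0.47 in the proteasome alpha ring and -0.23 in the translation list, and 0.26 in the lineage factors and 0.10 in mitosis, against 0.03 over all genes. The median gene length was 2952 bases in the proteasome ring and 5591 bases in the lineage factors.

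**Figure D5:**
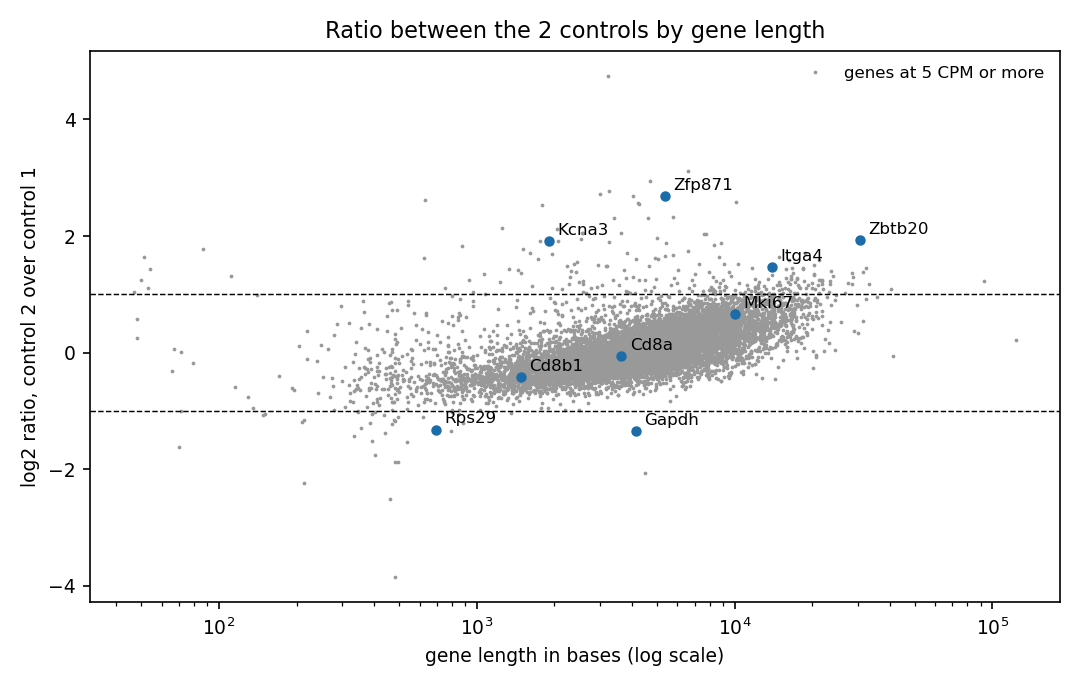
Log2 ratio of control 2 over control 1 (y axis) against gene length in bases (x axis, log scale) for the 10114 genes at a mean of 5 CPM or more, with dashed lines at 2-fold and 9 named genes marked. The cloud rises with length, Rps29 and Gapdh lie below the lower line, and Zfp871, Zbtb20, Kcna3 and Itga4 lie above the upper line.

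The genes above were then compared with the IFNα samples. The quasi-likelihood test of edgeR called 185 of 14417 genes (1.28%) higher and 20 (0.139%) lower in the IFNα samples, where a call needed a Benjamini-Hochberg adjusted p under 0.05 and over 2-fold change. None of the 100 most abundant control genes was called, and DESeq2 also called 0. Their median log2 fold change was -0.287, against -0.0139 over all tested genes. With 2 samples in each group, a gene that was not called is not shown to be unchanged. At an unadjusted p under 0.05 there were 3 of the 100, against 1624 of all 14417 genes (11.3%). Without control 2, 2 of the 100 were called, Malat1 higher and Rps12 lower in the IFNα samples.

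Interferon-stimulated genes and the effector genes Gzmb and Ifng were higher with IFNα. Of the interferon-stimulated list 19 of 20 were called higher in the IFNα samples, at a median log2 fold change of 4.52. Irf9 was also higher, with 167 and 168 CPM in the IFNα samples, against 98.6 and 92 CPM in the controls (log2 fold change 0.86 ± 0.12 (SE), adjusted p = 0.037 by edgeR), and missed the call by its fold alone. Rsad2 had 130.0 and 132 CPM in the IFNα samples, against 0.403 and 0.236 CPM in the controls (log2 fold change 8.69 ± 0.33 (SE), adjusted p = 0.000102). Gzmb had 829 and 854 CPM in the IFNα samples, against 82.9 and 73.4 CPM in the controls (log2 fold change 3.47 ± 0.15 (SE), adjusted p = 0.000543). Ifng had 78.5 and 84.1 CPM in the IFNα samples, against 9.9 and 10.6 CPM in the controls (log2 fold change 3.03 ± 0.13 (SE), adjusted p = 0.000408). For these 3 genes the 2 groups did not overlap. For Prf1 the levels were 46.3 and 48.9 CPM in the IFNα samples, against 30.4 and 28.8 CPM in the controls (log2 fold change 0.73 ± 0.13 (SE), adjusted p = 0.0769), which did not pass the test.

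Few genes of the lists were called lower with interferon. Ctla4 fell to 43.9 and 46.1 CPM in the IFNα samples, against 124 and 126 CPM in the controls (log2 fold change -1.43 ± 0.12 (SE), adjusted p = 0.00484). Of the myeloid markers Lyz2 (-1.46 on the log2 scale, adjusted p = 0.0297) and Mpo (-1.50, adjusted p = 0.0396) were also called lower, and the Mpo call was lost without either IFNα sample (adjusted p = 0.111 and 0.164, against 4.48e-07 to 0.164 over all alternatives). Itgae, the alpha chain of an integrin that binds E-cadherin, fell to 50.4 and 44.1 CPM in the IFNα samples, against 115 and 143 CPM in the controls (log2 fold change -1.40 ± 0.15 (SE), adjusted p = 0.0126). Cdc20 was the only mitotic gene of 22 called, with 66.2 and 74.1 CPM in the IFNα samples, against 158 and 134 CPM in the controls (log2 fold change -1.01 ± 0.16 (SE), adjusted p = 0.0481). At an unadjusted p under 0.05, 13 of the 22 had lower levels, against 11.3% of all tested genes in either direction. The Cdc20 call was lost without control 1 (log2 fold change -0.85), without IFNα sample 1 (adjusted p = 0.279) and without IFNα sample 2 (adjusted p = 0.0692). Its adjusted p ran between 5.45e-53 and 0.279 over all alternatives. None of the 31 replication genes, the 17 receptor complex genes, the 12 translation genes or the 18 nucleolar genes was called by edgeR or by DESeq2. Of all 14417 genes, edgeR called 1.28% higher and 0.139% lower. In lists of this size, counts of 0 are near those shares. At an unadjusted p under 0.05 the counts were 0 of the replication genes, 2 of the receptor complex genes, 0 of the translation genes and 1 of the nucleolar genes. The share of all tested genes was 11.3%, in either direction.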

How the data were processed

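RNA from 2 IFNα and 2 control samples was sequenced by the authors on an Illumina HiSeq, and they deposited raw counts per gene and, in a column of other values, a gene length in bases. The submitters' processing notes name HISAT2, Subread featureCounts and mm9, while the deposited gene coordinates and lengths match GRCm38 with GENCODE M21. Neither the strand setting nor the handling of reads with several positions is stated in the sources read. All 4 sample columns were used, and 0 columns of per-sample values lacked a sample. Replicates were taken from the labels. Whether they came from separate animals or cultures is not given, so p-values measure only the spread between these samples.

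Levels were CPM over the column sum (Python 3.11.15, pandas 2.3.3). A count of 0 in both controls was given the limit of 3 counts over both controls, which covers counting error only. For the comparison with IFNα, the counts as deposited were filtered with filterByExpr (minimum count 10, minimum total 15), scaled by TMM and tested with edgeR 4.0.16 in R 4.3.3 (glmQLFit and glmQLFTest on all 4 samples, no other term). A gene was called when its adjusted p was under 0.05 and its log2 fold change was over 1 in size. DESeq2 1.42.0, other factors, other filters, a replicate block and leaving out each sample were alternatives. The edgeR script was tested on simulated counts.

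The controls and the 39 gene lists were chosen with earlier results of these data known. Named genes were the 5 markers, the 20 highest by each scale, the 6 highest and 3 lowest of each list (all members of lists of 8 or fewer, and members at 0), genes the study names, and the 10 most apart between the controls in each direction at a mean of 20 CPM or more. Other list members named were chosen after their values were seen. Promoter windows came from RefSeq (GRCm38.p6, 32851 windows) and were matched by symbol. Principal transcripts came from GENCODE M21. A 50-base stretch counted as shared when it occurred, on the same strand, in a transcript of another gene.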

Additional observations from a re-analysis of the deposited data

How the results depend on the processing

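Counts of genes called between the IFNα and control samples depended on the setting more in the lower than in the higher direction. Higher calls (185) were 190 with RLE factors, 259 without a filter on low counts, 249 with DESeq2 and 206 without a fold threshold. Lower calls (20) were 62 without the filter, 37 with DESeq2 and 32 without a fold threshold. Leaving out 1 sample at a time gave 216 to 966 higher and 23 to 267 lower calls, with 966 and 267 when control 2 was left out and 302 and 101 when control 1 was. Same-numbered samples did not deviate together (r = -0.1765 over 14417 genes). With 2 samples in each group this value cannot decide whether same-numbered samples were paired. With a replicate block there were 253 higher and 37 lower calls. The crossed pairing, added after the data were seen, gave 337 and 91. The cause of these shifts was not tested. Where 1 sample was left out, the lone sample of that group was assumed to vary like the pair of the other group.

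Of the 100 most abundant control genes, 0 to 2 were called when 1 sample was left out, 0 with the replicate block, and 2 among the 100 most abundant by IFNα mean CPM. Genes over 2-fold apart between the controls numbered 772 at a mean of 1 CPM or more, a setting that admits lower counts, and 166 after a lowess fit on gene length was subtracted (153 higher and 13 lower in control 2), against 268 (232 higher and 36 lower). The other counts stayed within 1.5 times: 9872 to 13689 genes at 0.5 to 5 CPM in both controls, and 63 to 72 genes shared by the rankings. With TMM scaling 35 of 39 list sums moved by less than 1 SD and 4 by more. Of 9 named genes compared with IFNα, Rsad2, Gzmb, Ifng, Ctla4, Itgae, Lyz2 and Prf1 kept their direction and side of the threshold in all alternatives run. Mitotic genes called lower numbered 0 to 2 with 1 sample left out and 3 without a fold threshold. Depth limits the genes under about 10 counts, such as Gzma, Rsad2 and Ccr6.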

Other observations

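Variable segment genes of the antigen receptors were in no comparison. All 22 annotated Trbv segments in the table had counts in both controls, with sums of 314.8 CPM in control 1 and 267.7 CPM in control 2. Trbv13-2 held the largest share, 9.38% of the Trbv counts of control 1 and 12.6% of those of control 2. Trav segments summed to 91.0 CPM in control 1 and 87.1 CPM in control 2, with 71 of 108 counted in both. Segments of the gamma and delta receptor chains were near 0, with Trgv sums of 0.115 CPM in control 1 and 0.708 CPM in control 2.

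Immunoglobulin variable segments were also near 0. Ighv segments summed to 1.21 CPM in control 1 and 2.01 CPM in control 2, and Igkv segments to 1.67 CPM in control 1 and 1.89 CPM in control 2. Ighm stood well above them, with 433 CPM in control 1 and 375 CPM in control 2. The origin of the Ighm counts was not tested.

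Malat1, a nuclear long noncoding RNA, had 3154 and 2787 CPM in the IFNα samples, against 1307 CPM in control 1 and 2918 CPM in control 2. Control 1 was the low sample, as it was the high one for ribosomal protein genes. Neat1, another nuclear noncoding RNA, had 484 CPM in control 1 and 458 CPM in control 2 and showed no such gap.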
